A study of Mus musculus with 4 samples.

Results

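The genes described here are 32 genes of fatty acid oxidation, butyrate use and ketone body metabolism, chosen by symbol from the 31227 gene rows of a count table of mouse colonic epithelial cells. All 32 were in the table and all 32 passed the filter on low counts, which kept 15838 genes for testing. RNA sequencing compared WT mice (2 libraries, replicates 1 and 3) with mice whose Smad4 gene was knocked out in the epithelium (Smad4 KO, 2 libraries, replicates 1 and 2), and the question was how gene expression differed between these genotypes in experimental colitis. Mice of both genotypes were 8 to 10 weeks old and had received 3.5% dextran sulfate sodium (DSS), which damages the colonic lining and causes colitis, in their drinking water for 5 days, then plain water until they were killed on day 7; the time label reads 5 days. Since every library came from a DSS-treated mouse, the values show a difference between genotypes under DSS and not an effect of DSS. The allele, the Cre line that made the knockout epithelial and whether mice were pooled are details not given in the sources used. Nothing in the labels says that replicates are separate animals, and the p-values therefore reflect only how far these libraries spread, which may be technical.

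Colonocytes take up butyrate, a short-chain fatty acid made by gut bacteria, and burn it in their mitochondria as their main fuel. An acyl-CoA is shortened by beta-oxidation in a cycle of steps: an acyl-CoA dehydrogenase makes a double bond, a hydratase adds water, a hydroxyacyl-CoA dehydrogenase oxidises the product and a thiolase splits off acetyl-CoA. Long chains first need the carnitine shuttle to enter the mitochondrion, and acetyl-CoA can be burned in the tricarboxylic acid cycle or made into ketone bodies. Nuclear receptors of the PPAR family and the coactivator PGC-1α, encoded by Ppargc1a, are known regulators of many of these genes.

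The libraries held 42577920 to 67927291 counts, and each level below is in CPM (the count divided by the TMM-scaled library size), where a count of 1 was worth 0.0150 to 0.0229 CPM. The targeted gene Smad4 was at 152 and 179.8 CPM in WT and at 51.5 and 41.1 CPM in KO, so the libraries followed their labels and kept part of the Smad4 signal. Epithelial markers were abundant in all libraries, with Krt8, an epithelial keratin, at 5580 to 6201 CPM. Among 10 listed neutrophil markers, 5 of the 7 tested rose in KO, and Mpo, Elane and Camp were at 0 in every library. The summed level of the 10 was 103 to 129.9 CPM in WT and 427 to 439.5 CPM in KO. Most of it came from Ly6g, at 116 and 93.3 CPM in WT and 329.6 and 319 CPM in KO. S100a9 was far below Ly6g, at 4.44 and 3.37 CPM in WT and 43.3 and 42.6 CPM in KO. Which cells Ly6g came from was not tested, so the summed level need not follow neutrophils. Posterior Hox genes, markers of the distal gut, fell in 7 of 7 tested, and their summed level was 559 to 589 CPM in WT and 97.2 to 99.6 CPM in KO. Of 12 markers of absorptive colonocytes, which burn butyrate, 8 rose and 3 fell in KO. Their summed level was 8127 to 8237 CPM in WT and 10982 to 11121 CPM in KO. Among them, the carbonic anhydrase Car1 rose from 1069 and 1192 to 2631 and 2584 CPM (edgeR adjusted p = 0.000515). Aqp8, a water channel named after its values were seen, fell from 266 and 244 to 74.4 and 77.0 CPM (edgeR adjusted p = 0.000298). Macrophage markers rose in 3 of 10 tested, Lyz2 among them, and 8 of the 10 had a log2 fold change above 0 and 2 below. Their summed level was 179 to 196 CPM in WT and 183 to 189 CPM in KO. Most of it came from Cd14, at 159 and 181 CPM in WT and 136 and 134 CPM in KO. Lyz2 was at 5.57 and 3.76 CPM in WT and 18.8 and 18.9 CPM in KO. Fibroblast markers rose in 2 of 8 tested, with a summed level of 33.3 to 38.9 CPM in WT and 62.9 to 73.2 CPM in KO. Much of that difference lay in 1 of the called genes, Fbln1, at 9.73 and 10.3 CPM in WT and 28.1 and 34.7 CPM in KO. The part of these shifts in the results below was not tested.

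Of the 32 genes, 8 fell and 4 rose in the KO libraries at an edgeR quasi-likelihood adjusted p under 0.05. The fallen genes made up 25% of the 32, against 6.40% of all tested genes that were called lower in KO. The risen genes made up 12.5%, against 8.83% of all tested genes called higher. The 32 genes were chosen with earlier results of these data known, and the part of that choice in these shares was not tested. The 32 are abundant genes, with a median level of 114 CPM against 18.1 CPM over all tested genes, and the part of level in these shares was not tested. The fallen genes were the butyrate transporters Slc5a8 and Slc16a1, the enzymes Acadsb, Echs1, Hadh, Acat1 and Ehhadh, and the coactivator Ppargc1a. The risen genes were the enzymes Acadl and Acaa2, the receptor Pparg and Angptl4, an inhibitor of lipoprotein lipase. The other 20 genes had log2 fold changes (log2 change, KO over WT) from -0.34 to 0.71 and did not pass. The median log2 fold change was -0.10 over the 32 genes and 0.01 over all tested genes. Together the 32 genes took 0.459 and 0.466% of the counts in the WT libraries and 0.383 and 0.381% in the KO libraries. Such a sum weighs abundant genes most. In CPM it was 4530 and 4548 in WT and 3907 and 3880 in KO. Slc5a8 alone was at 493 and 512 CPM in WT and 206 and 209 CPM in KO. In bulk samples such as these, fewer cells of a type and less RNA per cell cannot be told apart.

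**Figure D1:**
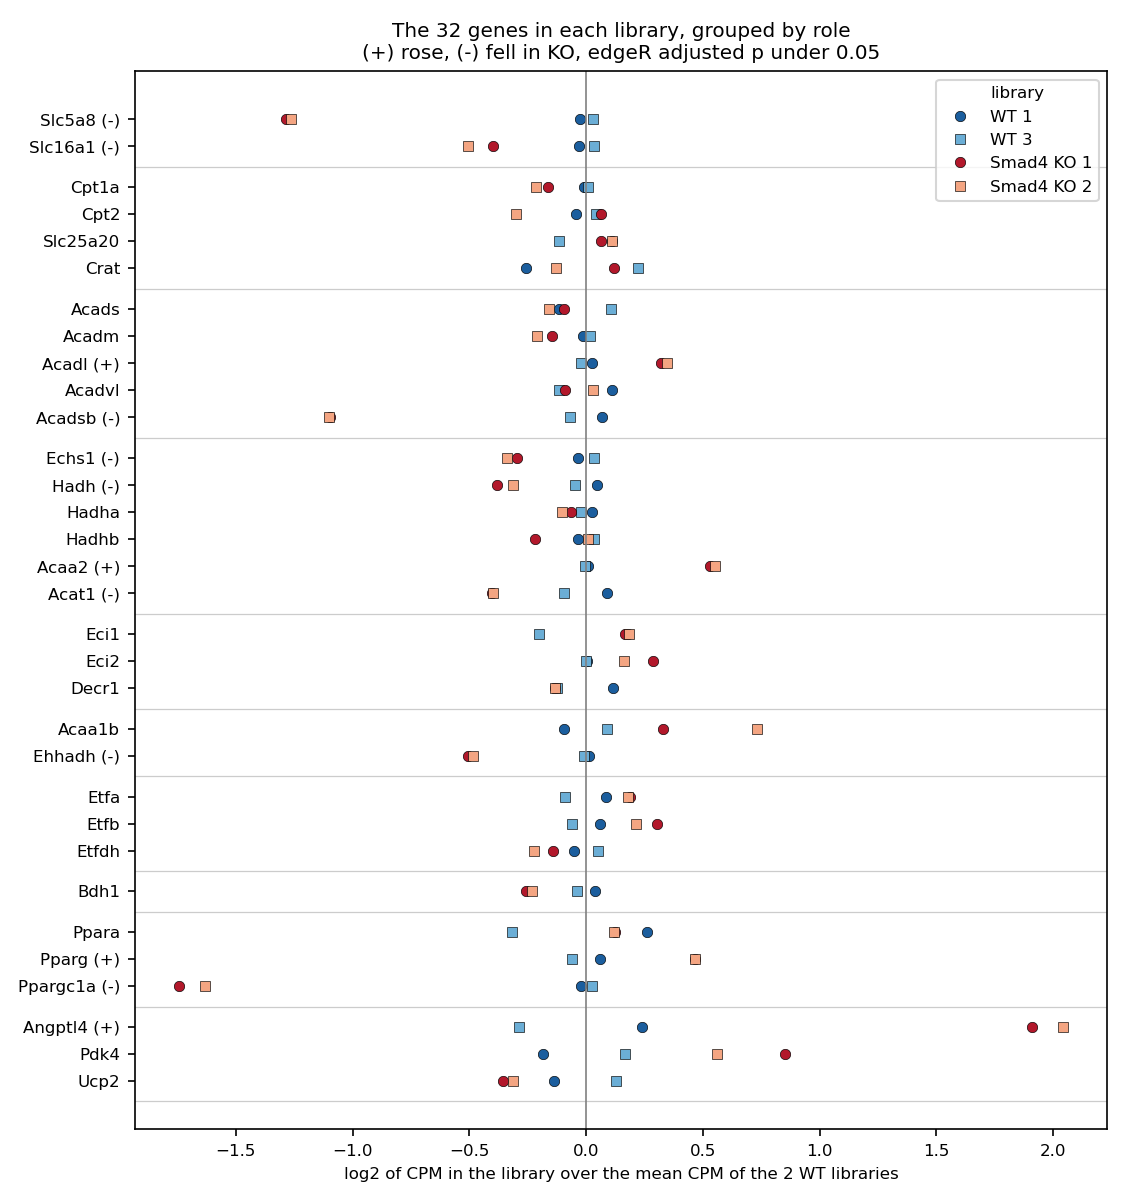
Level of each of the 32 genes in each library, as log2 of its CPM over the mean CPM of the 2 WT libraries, with genes grouped by role from transporters at the top to PPAR-responsive genes at the bottom. Circles and squares are single libraries, blue for WT and red for KO; both KO points of Slc5a8, Acadsb and Ppargc1a lie beyond 1 log2 unit below the WT mean, and those of Angptl4 lie above it by more than 1.5.

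In 24 of the 32 genes both KO libraries lay on the same side of both WT libraries, 9 of them higher and 15 lower in KO. Such a split was frequent with groups of 2 and was seen in 59.4% of all tested genes. Of the 12 called genes, 3 (Slc5a8, Acadsb and Ppargc1a) kept their call in each of the 4 fits that leave out 1 library, as did 5.01% of all tested genes. The other 9 lost it in at least 1 of these fits. Without KO replicate 1, 1 gene rose and 3 fell; without KO replicate 2, none rose and 3 fell by edgeR, where 5 were higher and 8 lower at an unadjusted p under 0.05. All 12 were called in each of 7 fits on the 4 libraries with another scaling, filter or test. These fits reuse the same libraries, and the share of all called genes that kept their call in them is not given here. Over all tested genes edgeR called 1398 higher and 1014 lower. The DESeq2 Wald test called 1922 and 1524, and limma-voom 1507 and 1133.

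The 2 transporters that carry butyrate into the cell both fell. Slc5a8, the sodium-coupled monocarboxylate transporter of the luminal membrane, had 493 and 512 CPM in WT and 206 and 209 CPM in KO. The libraries of a genotype lay close together and the genotypes did not overlap. Slc5a8 fell 2.42-fold (log2 change -1.28 ± 0.0548 SE, edgeR adjusted p = 0.000312), and its adjusted p was at most 0.00584 when any 1 library was left out. Slc16a1, the proton-coupled transporter MCT1, had 295 and 309 CPM in WT and 229 and 212 CPM in KO. It fell by 26.9% (log2 change -0.45 ± 0.0664 SE, edgeR adjusted p = 0.0116), with an adjusted p of 0.0534 without KO replicate 1 and 0.106 without KO replicate 2. The Slc5a8 to Slc16a1 ratio in CPM was 1.67 and 1.66 in WT and 0.900 and 0.985 in KO. Slc5a8 (ENSMUSG00000020062) lies on chromosome 10 (plus strand) from 88885992 to 88929515 and Slc16a1 (ENSMUSG00000032902) on chromosome 3 (plus strand) from 104638668 to 104658462 (GENCODE M21 on GRCm38).

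The promoters of both transporters and of Ppargc1a, the gene with the deepest fall, are printed here because these genes fell together, with the Hadhb promoter as a promoter whose genes did not pass the test. Each is the 300 bases from 250 before to 50 after the RefSeq start on GRCm38.p6, at chr10:88885742-88886041 on the plus strand for Slc5a8, chr3:104638414-104638713 on the plus strand for Slc16a1, chr5:51567676-51567975 on the minus strand for Ppargc1a and chr5:30155003-30155302 on the plus strand for Hadhb. Capitals mark CAGACA, a form of the short element that Smad proteins bind, or its reverse complement TGTCTG, and in Slc16a1 also GCGCATGC, the reverse complement of the NRF1 core GCATGCGC.
Slc5a8: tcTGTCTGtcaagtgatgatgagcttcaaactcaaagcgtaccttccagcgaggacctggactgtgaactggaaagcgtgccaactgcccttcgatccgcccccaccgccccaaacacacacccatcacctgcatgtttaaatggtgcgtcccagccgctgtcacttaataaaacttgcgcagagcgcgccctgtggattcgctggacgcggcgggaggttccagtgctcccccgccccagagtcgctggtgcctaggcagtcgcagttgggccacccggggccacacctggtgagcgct
Slc16a1: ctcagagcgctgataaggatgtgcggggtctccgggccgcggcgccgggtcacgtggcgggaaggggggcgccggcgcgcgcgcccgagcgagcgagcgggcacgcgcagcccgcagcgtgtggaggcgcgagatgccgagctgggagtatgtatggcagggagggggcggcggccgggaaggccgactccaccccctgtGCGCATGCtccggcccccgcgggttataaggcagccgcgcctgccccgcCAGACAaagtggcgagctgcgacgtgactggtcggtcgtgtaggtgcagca
Ppargc1a: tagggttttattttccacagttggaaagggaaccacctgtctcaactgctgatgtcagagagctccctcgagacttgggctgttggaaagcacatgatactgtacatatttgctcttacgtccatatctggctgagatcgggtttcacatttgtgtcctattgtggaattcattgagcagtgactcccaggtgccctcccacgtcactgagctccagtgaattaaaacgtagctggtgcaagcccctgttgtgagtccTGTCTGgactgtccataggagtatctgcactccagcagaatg
Hadhb: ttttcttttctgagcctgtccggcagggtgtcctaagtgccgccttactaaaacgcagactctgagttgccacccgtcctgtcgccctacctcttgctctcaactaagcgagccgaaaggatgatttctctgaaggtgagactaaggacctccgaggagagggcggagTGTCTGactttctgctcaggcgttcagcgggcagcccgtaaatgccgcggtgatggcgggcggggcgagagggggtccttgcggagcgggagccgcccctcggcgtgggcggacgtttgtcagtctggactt

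Promoters were found for 27 of the 32 genes, 30 promoters in all. CAGACA, searched on both strands, was in 13 of the 30 (12 genes), against 21% of the 32851 promoters in the RefSeq table. Of these 12 genes, 4 fell (Slc5a8, Slc16a1, Ehhadh and Ppargc1a), Pparg rose, and Acadvl, Bdh1, Etfa, Etfdh, Hadha, Hadhb and Ucp2 did not pass. The promoters of the fallen Acadsb, Echs1 and Hadh and of the risen Acadl lacked it, and none was found for the fallen Acat1. All promoters printed above hold it, while that of Acadsb, which fell more deeply than Slc16a1, is not printed. In Slc5a8 the element lies at bases 3 to 8 of the window, upstream of the start, in Slc16a1 at bases 250 to 255, across the start, and in Ppargc1a at bases 259 to 264, after it. GCATGCGC was in 5 of the 30 (Acadm, Etfa, Etfdh, Ppara and Slc16a1), against 2.71% of all promoters, and TATAAA in 1 (Pparg), against 13.6%. The ERR element TCAAGGTCA and the Smad palindrome GTCTAGAC were in none of the 30, against 0.423% and 0.213% of all promoters. These promoters were rich in CG dinucleotides, with a median of 17 per window against 7 over all promoters, and their median GC content was 61.0% against 52.7%. A match of letters in a window is a description and not a bound site.

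The carnitine shuttle, which brings long-chain fatty acids into the mitochondrion, did not pass edgeR's test in any of its 4 genes; at an unadjusted p under 0.05, 1 was lower and none higher, the DESeq2 Wald test called 1 lower and limma-voom none. Cpt1a, which loads the chain onto carnitine at the outer membrane and sets the pace of entry, had 386 and 390.3 CPM in WT and 346 and 334 CPM in KO. Both KO libraries were below both WT libraries, by 12.3% of the mean (log2 change -0.19 ± 0.0532 SE, edgeR adjusted p = 0.0760). The carrier Slc25a20 had 187 and 159 CPM in WT and 181 and 187 CPM in KO, and Cpt2, which unloads the chain inside, had 110.4 and 117 CPM in WT and 119 and 92.3 CPM in KO. In both genes, and in Crat, the acetyltransferase for short chains (39.2 to 54.7 CPM), the genotypes overlapped. Their log2 fold changes lay between -0.11 and 0.09.

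Among the 5 acyl-CoA dehydrogenases, which take the first step of beta-oxidation and differ in the chains they accept, 1 rose, 1 fell and 3 did not pass. Acadl, the mouse enzyme for long chains, had 183 and 177 CPM in WT and 225 and 229 CPM in KO, with no overlap. It rose 1.26-fold (log2 change 0.33 ± 0.0584 SE, edgeR adjusted p = 0.0201), with an adjusted p of 0.123 without KO replicate 1 and 0.169 without KO replicate 2. Acadsb, which acts on short branched chains from isoleucine breakdown, had 25.1 and 22.8 CPM in WT and 11.2 CPM in both KO libraries. It fell 2.14-fold (log2 change -1.10 ± 0.112 SE, edgeR adjusted p = 0.00371; at most 0.0373 without any 1 library). Acads, the enzyme for butyryl-CoA, had 143 and 166 CPM in WT and 145 and 138 CPM in KO, and the genotypes overlapped (log2 fold change -0.13, edgeR adjusted p = 0.431). Acadm, for medium chains, was at 112 and 115 CPM in WT and 103 and 97.9 CPM in KO (edgeR adjusted p = 0.147). Acadvl, for very long chains, ranged from 146 to 171 CPM with overlap, and its exons share 1151 bases with those of Dvl2 on the other strand. The summed level of the 5 dehydrogenases was 635 and 628 CPM in WT and 633 and 639 CPM in KO.

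Acadl (ENSMUSG00000026003) lies on chromosome 1 (minus strand) from 66830839 to 66863277 and Acadsb (ENSMUSG00000030861) on chromosome 7 (plus strand) from 131410601 to 131448944. Per kilobase of merged exon, Acadl was second of the 32 genes in WT (89.9 CPM per kb) and first in KO (113 CPM per kb). The merged length counts every annotated exon of a gene, 2005 bases for Acadl and 8730 for Hadha. It can exceed the length of the transcripts made, so places in this order are approximate. Slc5a8 was first in WT with 94.3 CPM per kb and number 13 in KO with 38.9 CPM per kb. Acaa2 went from place 7 (63.4 CPM per kb) to place 2 (92.3 CPM per kb). Some neighbours in this order did not differ beyond their spread: Slc16a1 and Acads, at places 3 and 4 in WT, had 68.2 and 68.1 CPM per kb.

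The later steps of the cycle moved in both directions. Echs1, the hydratase for short chains, had 147 and 154 CPM in WT and 122 and 119 CPM in KO. It fell by 19.7% (log2 change -0.32 ± 0.0649 SE, edgeR adjusted p = 0.0320), a call lost without WT replicate 3 (0.0641) and without KO replicate 1 or 2 (0.169 and 0.230). Hadh, the dehydrogenase for short and medium chains, had 260.3 and 244 CPM in WT and 193 and 203 CPM in KO. It fell by 21.4% (log2 change -0.35 ± 0.0659 SE, edgeR adjusted p = 0.0254; 0.181 and 0.133 without KO replicate 1 and 2). Acat1, the thiolase that joins or splits acetoacetyl-CoA in ketone body metabolism, had 189 and 166 CPM in WT and 134 and 135 CPM in KO. It fell by 24.3% (log2 change -0.40 ± 0.0815 SE, edgeR adjusted p = 0.0313; 0.169 and 0.173 without KO replicate 1 and 2). In each of these 3 genes both KO libraries were below both WT libraries. Echs1 shares 142 exon bases with Paox on the other strand.

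Acaa2, the mitochondrial thiolase for longer chains, moved the other way. It had 96.7 and 95.7 CPM in WT and 139 and 141 CPM in KO, and it rose 1.46-fold (log2 change 0.54 ± 0.0621 SE, edgeR adjusted p = 0.00542; 0.0604 without KO replicate 2). The gene (ENSMUSG00000036880) lies on chromosome 18 from 74779197 to 74806208, which is 1.08 Mb from Smad4 on the same chromosome. Within 2 Mb of Smad4, a window chosen after the values were seen, 15 other genes were tested. Of these, 2 rose, Acaa2 included, and 4 fell. That is 40% called, against 8.83% called higher and 6.40% called lower over all tested genes. The part of position in these calls was not tested.

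Hadha and Hadhb encode the 2 subunits of the mitochondrial trifunctional protein, which takes the last 3 steps for long chains. Hadha had 352 and 341 CPM in WT and 332 and 322 CPM in KO (log2 change -0.08 ± 0.0547 SE, edgeR adjusted p = 0.371). Hadhb had 127 and 133 CPM in WT and 112 and 131 CPM in KO (log2 change -0.10 ± 0.0953 SE, edgeR adjusted p = 0.553). The 2 genes run in opposite directions from starts 273 bases apart in RefSeq, so 228 of the 300 bases of the Hadhb promoter above, CAGACA element included, are also in the Hadha promoter. The Hadha to Hadhb ratio in CPM was 2.77 and 2.56 in WT and 2.96 and 2.46 in KO, with overlap.

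**Figure D2:**
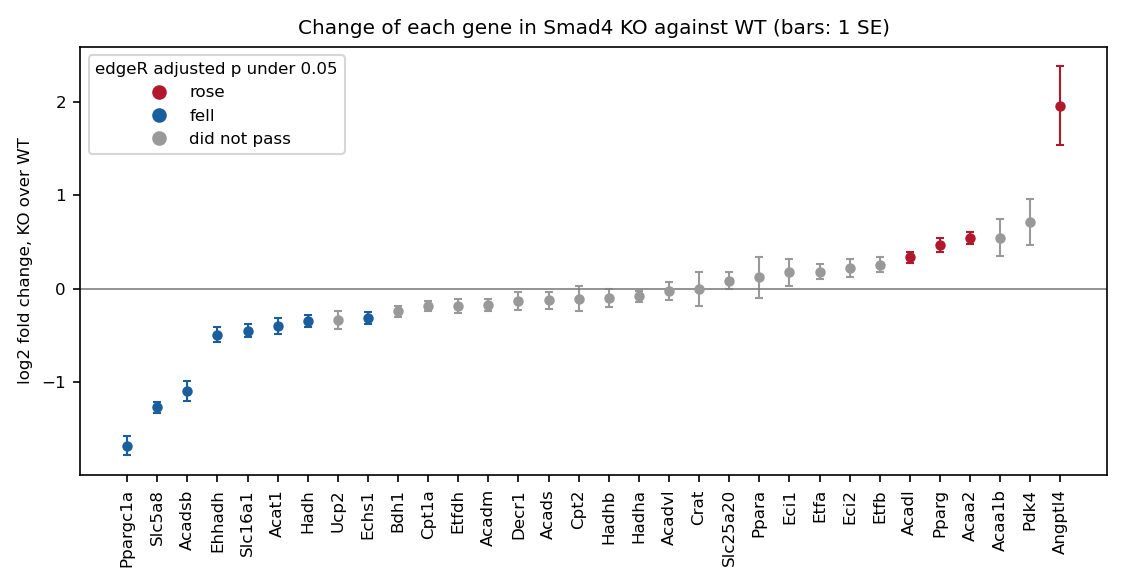
Log2 fold change of each of the 32 genes, KO over WT, ordered from the lowest to the highest, with bars of 1 SE from the edgeR quasi-likelihood fit. Red and blue points rose and fell at an adjusted p under 0.05 and grey points did not pass; Ppargc1a at -1.69, Slc5a8 at -1.28 and Acadsb at -1.10 stand at the low end and Angptl4 at 1.96 at the high end.

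None of the 3 enzymes that prepare unsaturated chains passed by edgeR, DESeq2 or limma-voom, and none had an unadjusted edgeR p under 0.05. The isomerase Eci1 had 38.7 and 29.8 CPM in WT and 38.4 and 38.9 CPM in KO (log2 fold change 0.17), with overlap. The isomerase Eci2 had 30.8 and 30.7 CPM in WT and 37.4 and 34.4 CPM in KO (log2 fold change 0.22), without overlap. Decr1, the reductase of 2,4-dienoyl-CoA, had 80.7 and 68.3 CPM in WT and 67.9 CPM in both KO libraries, just below the lower WT library.

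Of the 2 peroxisomal enzymes, which shorten chains too long for mitochondria, Ehhadh fell and Acaa1b did not pass. Ehhadh, which carries hydratase and dehydrogenase activity in 1 protein, had 50.3 and 49.5 CPM in WT and 35.1 and 35.6 CPM in KO. It fell by 29.1% (log2 change -0.50 ± 0.0815 SE, edgeR adjusted p = 0.0166; 0.139 and 0.113 without KO replicate 1 and 2). The thiolase Acaa1b had 6.15 and 7.0 CPM in WT and 8.25 and 10.9 CPM in KO (log2 fold change 0.55, edgeR adjusted p = 0.138), while its near-identical copy Acaa1a had 95.6 and 118 CPM in WT and 75.2 and 88.9 CPM in KO (-0.38, edgeR adjusted p = 0.133). Their longest open reading frames, 1275 bases each, were 96.5% identical, so reads of 1 copy may have been counted for the other. Added as 1 entry, the pair had a log2 fold change of -0.31 (edgeR adjusted p = 0.210), the opposite sign to Acaa1b alone.

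The electron transfer flavoprotein takes electrons from the acyl-CoA dehydrogenases and Etfdh hands them to the respiratory chain. None of the 3 genes passed by edgeR, DESeq2 or limma-voom, and 1 was higher at an unadjusted edgeR p under 0.05. Etfa, the alpha subunit, had 129 and 114 CPM in WT and 139 and 138 CPM in KO, and Etfb, the beta subunit, had 75.3 and 69.4 CPM in WT and 89.4 and 83.8 CPM in KO. Etfdh had 96.4 and 103 CPM in WT and 90.4 and 85.5 CPM in KO. No group overlapped another in these genes: both subunits were higher and Etfdh was lower in KO, with edgeR adjusted p-values of 0.214, 0.0940 and 0.178. The Etfa to Etfb ratio in CPM was 1.55 to 1.72 over the 4 libraries, with overlap. Etfb shares 617 exon bases with the gene model Gm45233 on the same strand, which itself had 113 and 7 counts in WT and 0 and 158 counts in KO.

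Ketone bodies made from acetyl-CoA are interconverted by Bdh1 and used through Oxct1, which activates acetoacetate. Bdh1 had 189 and 179 CPM in WT and 153 and 156 CPM in KO, a difference of 15.6% that did not pass (log2 change -0.24 ± 0.0632 SE, edgeR adjusted p = 0.0615) although the genotypes did not overlap. It passed with library totals, the DESeq2 Wald test and limma-voom (adjusted p = 0.0341, 0.00741 and 0.0461). Oxct1 had 254 and 246 CPM in WT and 136 and 134 CPM in KO; it fell 1.85-fold (log2 change -0.89 ± 0.0592 SE, edgeR adjusted p = 0.000986). Both KO libraries of Oxct1 were below both WT libraries, and the call held without any 1 library, with an adjusted p of at most 0.0168.

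**Figure D3:**
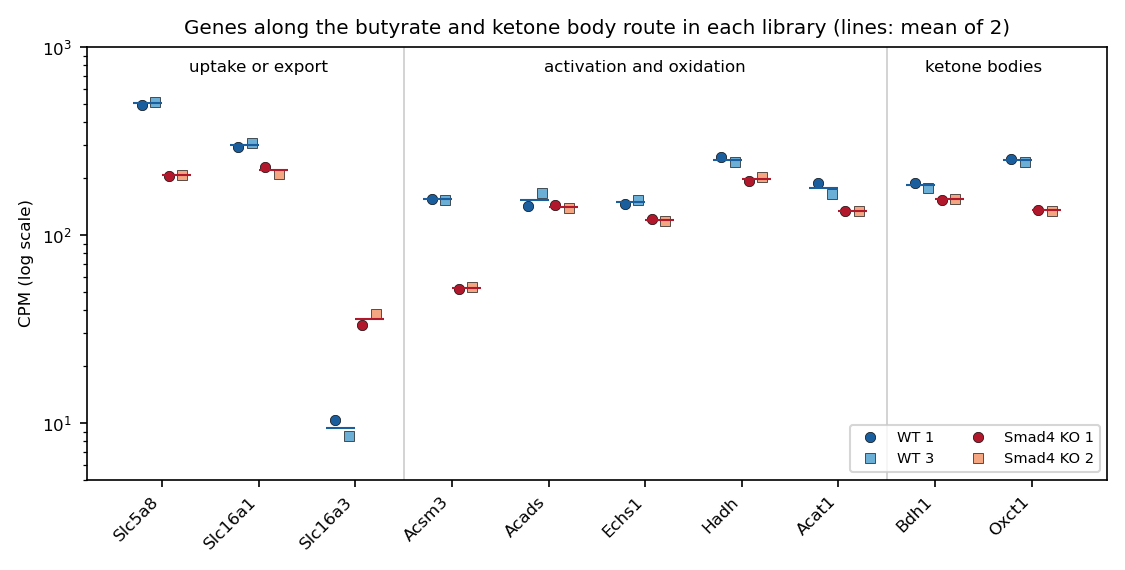
CPM of 10 genes along the route from butyrate uptake to ketone body use in each library, on a log axis, with a line at the mean of the 2 libraries of a genotype (blue WT, red KO). Slc5a8, Acsm3 and Oxct1 lie lower in KO, Slc16a3 lies higher, and Acads overlaps between genotypes.

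The other genes of ketone body and butyrate handling, a list of 15, counted 3 risen and 3 fallen among 14 tested. That is 21.4% each, against 8.83% risen and 6.40% fallen over all tested genes. Besides Oxct1, Acsm3, an acyl-CoA synthetase that activates medium and short chains such as butyrate, fell 2.96-fold, from 156 and 154 CPM in WT to 51.5 and 53.1 CPM in KO (edgeR adjusted p = 0.000298). Acss2, which activates acetate in the cytosol, fell 2.61-fold, from 145 and 135 CPM to 50.7 and 56.5 CPM (edgeR adjusted p = 0.000841). The risen genes included the lactate exporter Slc16a3 (MCT4) and the butyrate and hydroxybutyrate receptor Hcar2, both named after their values were seen. Slc16a3 had 10.4 and 8.51 CPM in WT and 33.4 and 37.9 CPM in KO, a rise of 3.77-fold (edgeR adjusted p = 0.00151), and the ratio of the importer Slc16a1 to it went from 28.5 and 36.3 to 6.86 and 5.61 in CPM. Hcar2 had 1.55 and 2.18 CPM in WT and 4.06 and 5.61 CPM in KO (edgeR adjusted p = 0.0402), and it was no longer called without WT replicate 1 (0.0896), nor without KO replicate 1 or 2 (0.0821 and 0.209). Hcar2 is also known from neutrophils, whose marker S100a9 rose here from 4.44 and 3.37 to 43.3 and 42.6 CPM. Ly6g, of the same marker list, rose from 116 and 93.3 to 329.6 and 319 CPM, and its cells of origin were not tested. The part of neutrophils in the level of Hcar2 was not tested.

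The regulators split. Ppargc1a, the coactivator of mitochondrial biogenesis and fatty acid oxidation genes, had 43.0 and 44.5 CPM in WT and 13.1 and 14.1 CPM in KO. It fell 3.22-fold (log2 change -1.69 ± 0.102 SE, edgeR adjusted p = 0.000751), the deepest fall among the 32 genes, and its adjusted p was at most 0.00863 without any 1 library. Pparg, a PPAR known from colonocytes, had 54.9 and 50.4 CPM in WT and 72.7 and 72.8 CPM in KO. It rose 1.38-fold (log2 change 0.47 ± 0.0789 SE, edgeR adjusted p = 0.0181; 0.133 and 0.124 without KO replicate 1 and 2). Ppara, the PPAR best known for fatty acid oxidation in the liver, had 11.0 and 7.39 CPM in WT and 10.0 CPM in both KO libraries, with overlap. Ppargc1a (ENSMUSG00000029167) lies on chromosome 5 (minus strand) from 51454250 to 51567726 and Pparg (ENSMUSG00000000440) on chromosome 6 (plus strand) from 115360951 to 115490399.

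Of 22 other PPAR and coactivator genes, 20 were tested, 1 rose (5%) and 4 fell (20%), against 8.83% and 6.40% of all tested genes. Esrrg, an orphan nuclear receptor that works with PGC-1α, fell 10.6-fold, from 4.99 and 5.87 CPM in WT to 0.632 and 0.390 CPM in KO (edgeR adjusted p = 0.00351). The coactivator Ncoa1 fell by 30.1% (edgeR adjusted p = 0.0168), the corepressor Nrip1 fell by 22.5% (0.0364) and Ppard, the third PPAR, rose 1.45-fold from 185 and 169 to 234 and 278 CPM (0.0271). The fourth fallen gene was Hnf4a, at 942 and 910.3 CPM in WT and 766 and 812 CPM in KO. Without KO replicate 2 the calls of Ncoa1, Nrip1, Ppard and Hnf4a were lost, with edgeR adjusted p-values of 0.128, 0.236, 0.130 and 0.154, while that of Esrrg was 0.0175. Ncoa1, Nrip1 and Hnf4a also lost theirs without KO replicate 1 (0.0822, 0.112 and 0.317), Ppard and Nrip1 without WT replicate 3 (0.0744 and 0.0818) and Hnf4a without WT replicate 1 (0.0575) and with upper-quartile scaling (0.0505).

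The 3 PPAR-responsive genes did not move as 1 group. Angptl4 was a low gene with 0.529 and 0.367 CPM in WT, from 30 and 16 counts, and 1.68 and 1.84 CPM in KO, from 101 and 123 counts. It rose 3.9-fold (log2 change 1.96 ± 0.421 SE, edgeR adjusted p = 0.0370), and the call was lost without WT replicate 3 (0.0780) and without KO replicate 1 or 2 (0.178 and 0.221). Angptl4 is made by adipocytes and other cells too; of 8 adipocyte markers, Adipoq, Lep, Plin1, Retn and Cfd were at 0 in all libraries, and the summed level of the 8 was 10.5 to 12.4 CPM in WT and 20.04 to 21.1 CPM in KO, mostly from Lpl. Pdk4, the kinase that turns down pyruvate oxidation, had 2.54 and 3.23 CPM in WT and 5.21 and 4.26 CPM in KO (log2 fold change 0.71, edgeR adjusted p = 0.123). Ucp2, an inner membrane carrier, had 405 and 488 CPM in WT and 348 and 359 CPM in KO (log2 fold change -0.34, edgeR adjusted p = 0.0812). The genotypes did not overlap in Pdk4 or Ucp2, with unadjusted edgeR p-values of 0.0315 and 0.0163. Ucp2 passed in 2 of the 7 fits with another scaling, filter or test, the DESeq2 Wald test among them, and Pdk4 in none.

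Of 26 other PPAR-responsive genes, 17 were tested, 3 rose (17.6%) and 4 fell (23.5%), against 8.83% and 6.40% of all tested genes. Mgll, a lipase of monoglycerides, rose 1.80-fold from 33.5 and 33.8 to 57.2 and 64.0 CPM (edgeR adjusted p = 0.00464). Pdk2, another pyruvate dehydrogenase kinase, fell 1.94-fold from 58.5 and 47.7 to 27.2 and 27.4 CPM (edgeR adjusted p = 0.00768; 0.0562 and 0.0519 without KO replicate 1 and 2). Hmgcs1, the cytosolic synthase of the sterol pathway, fell by 28.7%, and Slc25a34, a mitochondrial carrier, fell by 32.4% (edgeR adjusted p = 0.0188 and 0.0224). Without KO replicate 1 their adjusted p-values were 0.122 and 0.150, without KO replicate 2 they were 0.0899 and 0.101, and that of Slc25a34 was 0.0565 without WT replicate 3.

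Fatty acid uptake and activation counted 3 risen (13.0%) and 1 fallen (4.35%) of 23 tested genes, against 8.83% and 6.40% of all tested genes. Fabp2, an intestinal fatty acid binding protein, rose 1.64-fold from 58.2 and 53.4 to 93.7 and 89.0 CPM (edgeR adjusted p = 0.00500; 0.0522 without KO replicate 1). The 2 acetyl-CoA carboxylases went opposite ways: Acaca, which feeds fatty acid synthesis, fell by 36.3% from 105 and 111 to 70.7 and 66.9 CPM (edgeR adjusted p = 0.00487; 0.0529 without KO replicate 2), and Acacb, whose product malonyl-CoA inhibits Cpt1a at the mitochondrion, rose 1.97-fold from 28.8 and 29.2 to 56.0 and 58.0 CPM (edgeR adjusted p = 0.00213). Acsf2, an acyl-CoA synthetase, rose 1.24-fold (edgeR adjusted p = 0.0299; 0.146 and 0.223 without KO replicate 1 and 2, and 0.0573 without WT replicate 3).

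Among 15 other mitochondrial oxidation genes 1 rose (6.67%) and 2 fell (13.3%), against 8.83% and 6.40% of all tested genes. The fallen 2 belong to amino acid breakdown: Hibadh, of valine, fell by 30.5% and Gcdh, of lysine, fell by 29.3% (edgeR adjusted p = 0.0111 and 0.0274). The thioesterase Acot9 rose 1.55-fold (edgeR adjusted p = 0.0111). Hibch, the enzyme of the valine route before Hibadh, had 26.4 and 23.3 CPM in WT and 20.4 and 19.1 CPM in KO, and it missed the threshold (edgeR adjusted p = 0.126). Among 20 tested peroxisomal genes 1 rose (5%) and 2 fell (10%). Among the fallen, Hacl1, which acts in alpha-oxidation, fell by 47.5% (edgeR adjusted p = 0.0290). Without KO replicate 1 the calls of Hibadh, Gcdh, Acot9 and Hacl1 were lost, with edgeR adjusted p-values of 0.0780 to 0.181, as they were without KO replicate 2 (0.0789 to 0.143). Those of Gcdh and Hacl1 were also lost without WT replicate 3 (0.0628 and 0.0756).

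Over all 6 lists of other pathway genes, 125 genes of which 109 were tested, 12 rose (11.0%) and 16 fell (14.7%). Of all tested genes, 8.83% rose and 6.40% fell. The median log2 fold change of the 109 genes was -0.07. In the tricarboxylic acid cycle, which burns the acetyl-CoA, 5 of 18 genes fell and none rose by edgeR (none rose by DESeq2, by limma-voom or at an unadjusted p under 0.05), with a median of -0.16: Cs, Idh3a, Idh2, Ogdh and Suclg1, named after their values were seen. Citrate synthase, Cs, had 769 and 727 CPM in WT and 569 and 562 CPM in KO (edgeR adjusted p = 0.00789). A log2 fold change below 0 was seen in 17 of the 18 genes. Of all 15838 tested genes, 7767 were below 0 and 8071 above. Of 12 genes for mitochondrial import and the outer membrane, 10 had a log2 fold change above 0, with a median of 0.15, and 1 passed, the chaperonin Hspd1, which rose. None of these 12 fell by edgeR or limma-voom, while 1 was lower by DESeq2 and at an unadjusted p under 0.05. The 5 fallen genes and Hspd1 lost their calls without KO replicate 1 (edgeR adjusted p = 0.0564 to 0.169) and without KO replicate 2 (0.0637 to 0.176).

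**Figure D4:**
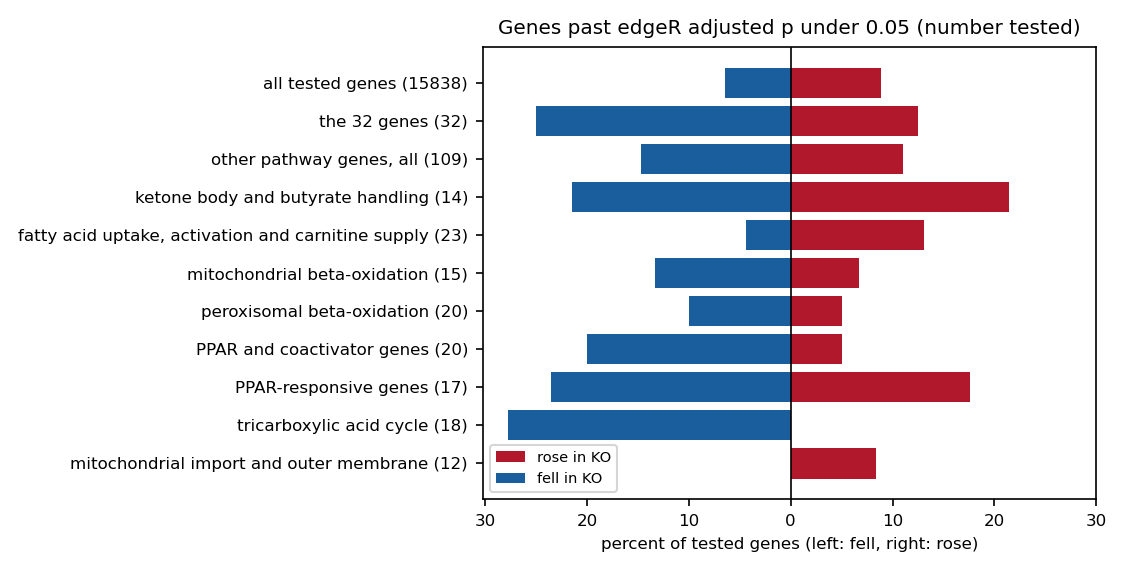
Share of tested genes that fell (blue, to the left) and rose (red, to the right) in KO at an edgeR adjusted p under 0.05, for all tested genes, the 32 genes, the 6 lists of other pathway genes together and singly, and 2 mitochondrial lists, with the number tested in brackets. Fallen genes were 25% of the 32 genes and 27.8% of the tricarboxylic acid cycle list, against 6.40% of all tested genes. The 32 genes and the lists were chosen with earlier results of these data known.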

How the data were processed

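The authors deposited a table of raw counts (whole numbers) with 31227 Ensembl gene IDs as rows and the 4 libraries as columns. Per the labels' protocols, 1.5 µg of TRIZOL-extracted total RNA was primed with random hexamers. The tools named, per the submitters' processing notes, are FastQC 0.19.7, HISAT2 2.1.0, SAMtools 1.9 and StringTie 1.3.3b on GRCm38 (mm10); which of them made the counts, the annotation release, strand use and the treatment of multi-mapping reads are not given in the sources used. Reads of overlapping or near-identical genes can therefore have been split between them, and antisense pairs cannot be told apart.

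GENCODE M21 gave a symbol to 31207 IDs, and the 20 without one took 0.00197% of the counts or less in each library. Counts of the 15838 genes kept by filterByExpr (of 19618 with any count) were TMM-normalized and tested with edgeR 4.0.16 (R 4.3.3; glmQLFit, glmQLFTest, two-sided) on genotype alone, with adjustment by Benjamini and Hochberg over these genes and a threshold of 0.05. The SE is the log2 fold change divided by the square root of F. The square root of the common dispersion was 0.196. Each SE rests on the spread between the 2 libraries of a genotype, moderated over all tested genes, and covers no other source of variation. Replicates differed beyond sampling noise (mean chi-square per gene 39.0 in WT and 32.5 in KO) and were kept as separate replicates. Levels per kb divide CPM by the merged exon length of a gene in M21. The fit was also run on counts simulated from its own means and dispersions, which cannot show whether replicates are separate animals. The outcome is not reported here.

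The members and the gene lists were chosen with earlier results of these data known. The genes named were all 32 members, up to 4 tested genes with the smallest p from each of the 6 other lists, Acaa1a, Acot1, Oxct1 and Smad4, and at most 2 of the most abundant genes of each context list; others are said to be named after their values were seen, as are Hnf4a and the markers listed at 0. Some genes that this rule takes are not reported here. Acot1 did not pass (edgeR adjusted p = 0.218). Alternatives were DESeq2 size factors, upper-quartile scaling and library totals, no low-count filter, a minimum of 1 CPM in at least 2 libraries, the Wald test of DESeq2 1.42.0, limma-voom with limma 3.58.1, leaving out each library, and Acaa1a and Acaa1b added. Promoters are from a RefSeq table (GRCm38.p6).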

Additional observations from a re-analysis of the deposited data

How the results depend on the processing

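No paired analysis was possible because the genotypes share only replicate number 1. Over the 11 fits other than the one reported, the 32 genes gave 352 results, of which 312 kept their direction and their side of the threshold, 19 lost a call, 8 gained one and 13 changed sign. The sign changes were in 7 genes, none of them called: over the fits without 1 library, the log2 fold change was -0.30 to 0.0634 for Cpt2, -0.0205 to 0.19 for Slc25a20, -0.23 to 0.26 for Crat, -0.14 to 0.0763 for Acadvl, -0.22 to 0.0144 for Hadhb, -0.0013 to 0.36 for Eci1 and -0.14 to 0.43 for Ppara. Crat, at 0.00 as reported, was also at 0.0009 with upper-quartile scaling, 0.0025 with no low-count filter, 0.0007 with the filter of 1 CPM and 0.0296 with limma-voom. Acaa1b changed from 0.55 to -0.31 when added to Acaa1a.

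The DESeq2 Wald test called 1524 genes lower in KO, against 1014 by edgeR; the cause was not tested. Library totals in place of TMM moved the median of the 32 genes from -0.10 to -0.16. Without 1 library in turn, the calls over all genes were 547 to 1504 higher and 425 to 1069 lower, those among the 32 genes 0 to 4 higher and 3 to 9 lower, those among other pathway genes 5 to 13 higher and 4 to 20 lower, and the median of the 32 genes was -0.154 to -0.0919. In the fits without a KO or WT library the lone library is assumed to vary like the other genotype's pair. Depth limits Angptl4, with 16 to 123 counts, and few others of the 32 genes.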
